A study of Mus musculus with 12 samples.

Results

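The genes described are 9 genes whose surface proteins or enzyme are used as markers of stem and progenitor cells: the Ly6 family genes Ly6e, Ly6a and Ly6c1, the prominin genes Prom1 and Prom2, and Cd44, Cd24a, Procr and Aldh1a3. They were taken by symbol from a count table of 22880 genes, and all 9 were found. They were chosen by measured values of these libraries, above all the differences between MYBup and mock and between lung3 and wt, so in those comparisons their values are a description without a test. The filter on low counts kept 11291 genes and 6 of the 9. Ly6c1, Prom1 and Aldh1a3 did not pass it.

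RNA of 4T1, a mouse mammary tumour cell line, was sequenced in 4 groups of 3 libraries. MYBup cells carried the plasmid pcDNA3-mMyb, which encodes mouse c-Myb, and mock cells carried pcDNA3.1, a vector for which the labels name no insert. The lung3 cells were untransfected and came from 3 rounds of lung passage in vivo, and wt cells were untransfected and not passaged. The labels rate lung metastatic activity as low for MYBup, normal for mock, high for lung3 and normal for wt, and the study sought genes lower in MYBup than in mock and higher in lung3 than in wt, or the reverse. The labels do not say whether a line is a pool or a clone, so plasmid and line cannot be told apart, nor do they name separate cultures behind the replicates, so a p-value reflects library-to-library spread, which may be technical.

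Ly6 proteins are small, cysteine-rich proteins held in the outer membrane by a lipid anchor, and their mouse genes lie in a cluster on chromosome 15. Ly6a encodes Sca-1, a marker of mouse blood stem cells that is also used to separate classes of mammary epithelial cells, and Ly6e is an interferon-inducible gene. Prominins bind cholesterol in membrane protrusions, and prominin-1 is CD133. CD44 binds hyaluronan, CD24 is a heavily glycosylated anchored protein, and the pair is used to sort mammary stem and tumour-initiating cells. Procr encodes the endothelial protein C receptor, a mouse mammary stem cell marker, and Aldh1a3 encodes a retinaldehyde dehydrogenase that contributes to the ALDH activity used for sorting human breast cancer cells.

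The libraries held between 8912989 counts (lung3 replicate 2) and 24745660 (wt replicate 2). Myb stood at 40.7 ± 1.94 CPM, counts scaled to a common library size, in MYBup against 5.49 ± 1.19 in mock, and at 2.71 ± 0.459 in lung3 against 4.99 ± 0.742 in wt (SD, n = 3 each). Plasmid and endogenous Myb fall into the same row. All 8 epithelial markers had counts, with a summed level between 2636 and 3481 CPM in every library. Of 13 leukocyte markers, 5 to 7 had any count in a group, and their sum was 3.62 to 4.64 CPM in MYBup, 3.99 to 6.77 in mock, 8.43 to 8.66 in lung3 and 4.87 to 6.52 in wt. Most of it was Cd68, and Adgre1, Cd3e, Cd52 and Tyrobp were at 0. The sum was thus highest in lung3, where Cd68 stood at 7.71 CPM against 5.2 in wt. Other markers of the list did not share this order. Csf1r was highest in lung3 (0.146 CPM), Ptprc in MYBup (0.378 against 0.231 in lung3), and S100a8 in mock (0.488 against 0.233). Itgam was also highest in mock (0.174 against 0.125 in lung3). Any part of leukocyte RNA in the lung3 values below was not tested. Endothelial markers summed to 7.39 to 12.1 CPM, mostly Egfl7, with Kdr and Cldn5 at 0. Fibroblast markers summed to 36.9 to 49.4 CPM in MYBup and mock and to 18.8 to 30.8 in lung3 and wt, mostly Pdgfra, with Lum and Thy1 at 0. The 9 lung epithelium and erythroid markers summed to at most 0.261 CPM in any library, with Sftpc, Sftpb, Sftpa1 and Nkx2-1 at 0. Mock replicate 3 and lung3 replicate 3 stood apart from their groups in inflammatory genes. The cytokine gene Il1a had 13.5 CPM in mock replicate 3 against 84.2 and 85.0 in the other mock libraries, and 74.8 CPM in lung3 replicate 3 against 273 and 306 in the other lung3 libraries.

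Ly6e and Prom2 had the widest differences between groups, and in opposite directions. Ly6e transcripts were nearly absent from MYBup cells and most abundant in lung3 cells. Prom2 transcripts were most abundant in MYBup cells and lower in lung3 than in wt cells. Cd44, Cd24a and Procr were expressed at substantial levels in all 4 groups, Ly6a was low throughout, and Ly6c1, Prom1 and Aldh1a3 were close to the limit of counting.

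Levels are compared between genes as CPM per kilobase of exon, averaged over the 12 libraries. On this scale Cd24a stood at 160, Cd44 at 141 and Procr at 37.0, at percentiles 97.8, 97.5 and 88.0 of the tested genes. Prom2 stood at 4.44 and Ly6e at 3.55, at percentiles 37.0 and 32.1. Ly6a reached 0.678, at percentile 9.72. The other 3 were lower still, with Ly6c1 at 0.107, Aldh1a3 at 0.0022 and Prom1 at 0.00218 CPM per kilobase.

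**Figure D1:**
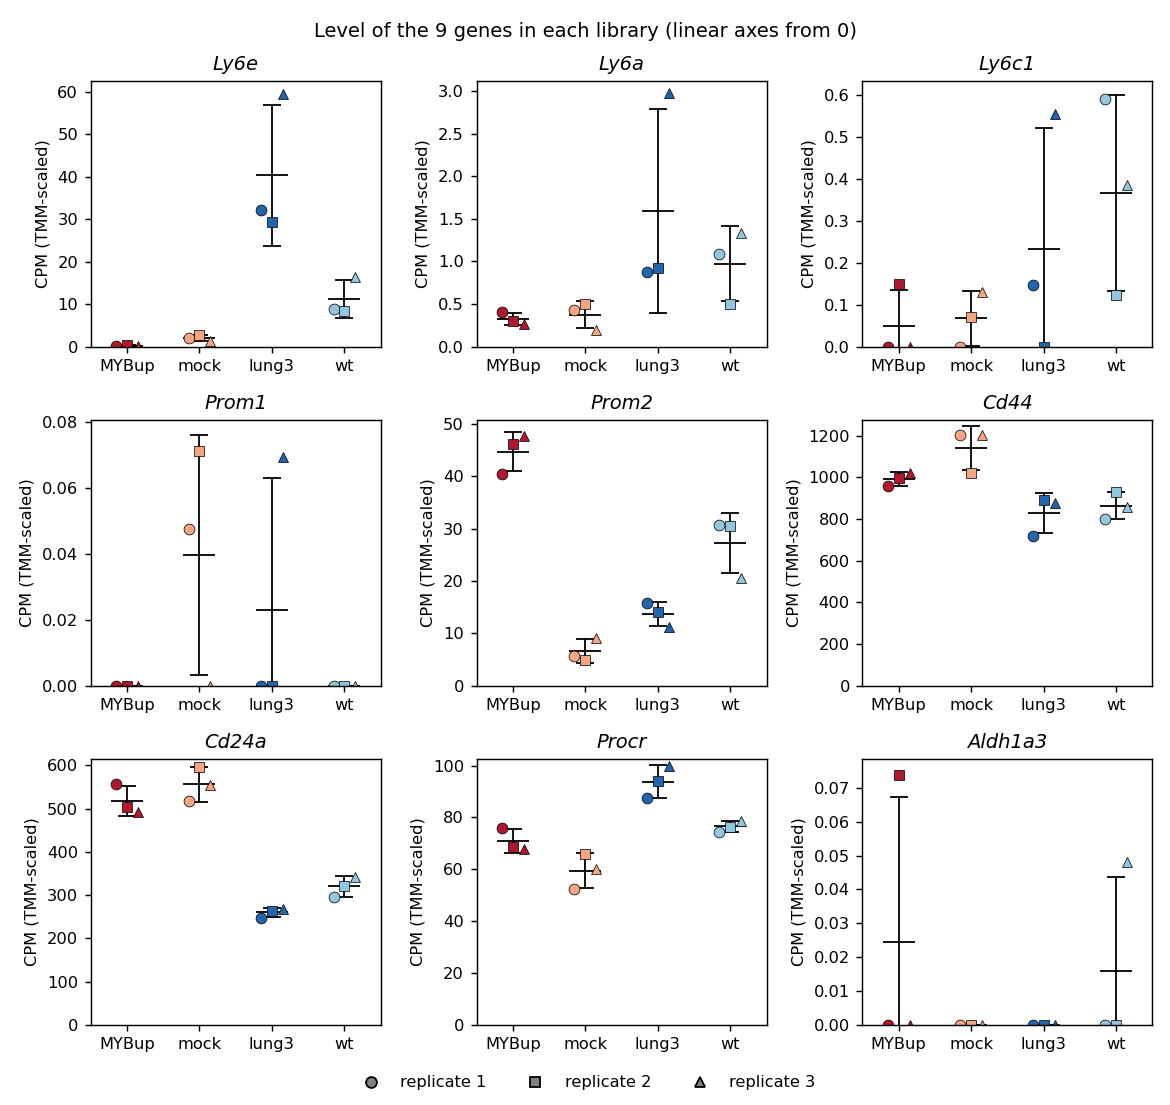
TMM-scaled CPM of the 9 genes in each library on linear axes from 0, with 1 symbol per replicate number and the group mean and SD as a bar and whiskers (whiskers are clipped at 0). The MYBup libraries lie at 0.160 to 0.296 CPM for Ly6e and at 40.4 to 47.6 CPM for Prom2, and for these 2 genes no group overlaps another.

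Ly6e (ENSMUSG00000022587, chr15:74955051-74959905, plus strand, GRCm38) had 2, 4 and 3 counts in the MYBup libraries and 41, 38 and 20 in the mock libraries. In CPM these were 0.163, 0.296 and 0.160 in MYBup against 1.94, 2.71 and 1.31 in mock. The lung3 libraries held 32.2, 29.3 and 59.5 CPM against 8.91, 8.47 and 16.4 CPM in wt. Fewer transcript-bearing cells and less RNA per cell cannot be told apart in such bulk libraries. The groups did not overlap, and their order was lung3, wt, mock and MYBup, with each neighbouring pair apart. Replicate 3 was the highest library in both lung3 and wt. The log2 fold change was -3.24 (SE 0.75) in MYBup against mock and 1.86 (SE 0.29) in lung3 against wt. Because only 9 reads support the MYBup level, the ratio of count sums is also given: 0.103 of the mock level, with an exact 95% interval from 0.0457 to 0.203 that covers counting error only. The coefficient of variation of Ly6e between libraries of a group was 37.6% in MYBup, 35.3% in mock, 41.2% in lung3 and 39.6% in wt. The median tested gene had 7.84%, 11.1%, 9.15% and 7.19% in the same groups. In lung3 and wt, which had more counts, Ly6e thus varied more than most genes. The MYBup value rests on 2, 4 and 3 counts, where counting error alone can give such a spread. Counting error also adds to the mock value.

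In lung3 and wt the libraries with the same replicate number deviate together, and the spread of Ly6e is shared in this way. Its lung3 level divided by the wt level of the same number was 3.62, 3.46 and 3.63. The ratio was therefore steady, although the levels of replicate 3 were close to double those of the others in both groups. For Prom2 the ratios by number were 0.512, 0.460 and 0.542, again closer to each other than the levels. Cd24a gave 0.839, 0.823 and 0.782, and Procr 1.18, 1.23 and 1.27. Ly6a gave 0.801, 1.86 and 2.22 and Cd44 0.895, 0.957 and 1.02, so the direction of these 2 genes was not the same at every number.

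**Figure D2:**
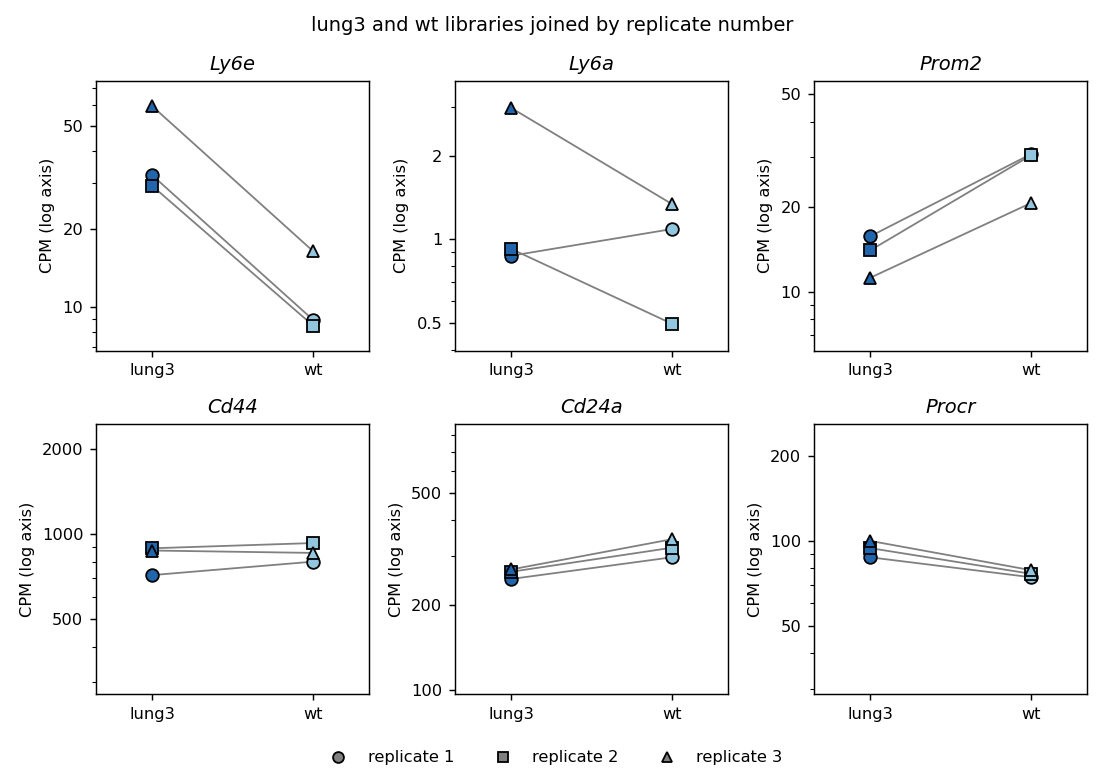
CPM on a log axis in lung3 and wt libraries for the 6 genes that passed the filter, with a line joining libraries of the same replicate number. The lines run nearly parallel for Ly6e, Prom2, Cd24a and Procr, with lung3 over wt ratios of 3.46 to 3.63 for Ly6e, and cross or converge for Ly6a.

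Ly6a (chr15:74994877-74998031, minus strand) had 0.407, 0.296 and 0.267 CPM in MYBup and 0.427, 0.499 and 0.196 in mock. In lung3 it had 0.873, 0.924 and 2.98 CPM, and in wt 1.09, 0.496 and 1.34. Every neighbouring pair in the order lung3, wt, mock, MYBup overlapped. The log2 fold change was -0.25 (SE 0.75) in MYBup against mock and 0.79 (SE 0.46) in lung3 against wt, and neither passed the threshold. The lung3 value rests on replicate 3, since without that library it was -0.11. Ly6c1 (chr15:75044018-75048830, minus strand), a gene of the monocyte antigen Ly6C, had 0, 2 and 0 counts in MYBup and 0, 1 and 2 in mock. It had 2, 0 and 8 counts in lung3 and 13, 3 and 8 in wt. Its lung3 sum was 0.759 of the wt level with a counting interval from 0.324 to 1.65, so no difference was detectable at this depth.

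Some reads of Ly6a and Ly6c1 may be hard to tell from those of each other or of Ly6c2. The starts of their coding sequences are shown as an example of a stretch where they are much alike. Each line gives the first 90 coding bases from the GENCODE M21 transcript, 5′ to 3′, with capitals at every position that differs from Ly6a when the sequences are laid side by side without gaps.
Ly6a: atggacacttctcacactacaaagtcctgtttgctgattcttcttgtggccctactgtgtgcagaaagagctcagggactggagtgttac
Ly6c1: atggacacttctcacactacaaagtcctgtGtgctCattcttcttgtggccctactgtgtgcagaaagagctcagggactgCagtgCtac
Ly6c2: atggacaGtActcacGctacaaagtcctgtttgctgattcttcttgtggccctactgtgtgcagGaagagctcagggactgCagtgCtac
Ly6e: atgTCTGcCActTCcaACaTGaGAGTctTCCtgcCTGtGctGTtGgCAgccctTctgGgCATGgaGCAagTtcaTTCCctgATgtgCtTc
Ly6c1 differs from Ly6a at 4 of these 90 positions, Ly6c2 at 6 and Ly6e at 46. Over the whole coding sequence, aligned with gaps, Ly6a and Ly6c1 were 82.0% identical, Ly6c1 and Ly6c2 97.7%, and Ly6e and Ly6a 53.9%. The starts of Ly6a and Ly6c1 are thus more alike than their whole coding sequences. Of all 50-base stretches in Ly6a transcripts, 19.0% also occur in transcripts of other genes, most of them in Ly6c1, and for Ly6c1 the share is 32.8%. For Ly6e it is 0%, so a part of the counts of Ly6a and Ly6c1 is uncertain in a way that those of Ly6e are not, while most such stretches of both genes occur in no other gene.

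Within 500 kb of Ly6e the table holds 26 other genes. A count was seen for 13 of them, and 4 passed the filter. Most of the Ly6 cluster was therefore at or near 0 in these cells, Ly6c2 with 13 counts over all libraries and Ly6f with 11. Past the threshold in MYBup against mock was 1 of the 4, BC025446, about 261 kb from Ly6e. Its log2 fold change there was 3.03 (SE 0.39, adjusted p = 0.000109), opposite in sign to that of Ly6e, and in lung3 against wt it was -0.90 (SE 0.43, adjusted p = 0.244). Jrk, with -0.08 and 0.26, and Them6, with 0.27 and 0.38, passed in neither comparison. Against wt, Them6 was lower in both plasmid lines, as Ly6e was, at -0.999 in MYBup and -1.273 in mock, both past the threshold. BC025446 passed there at 1.72 in MYBup and -1.308 in mock, and Jrk, at -0.11 and -0.03, did not pass.

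**Figure D3:**
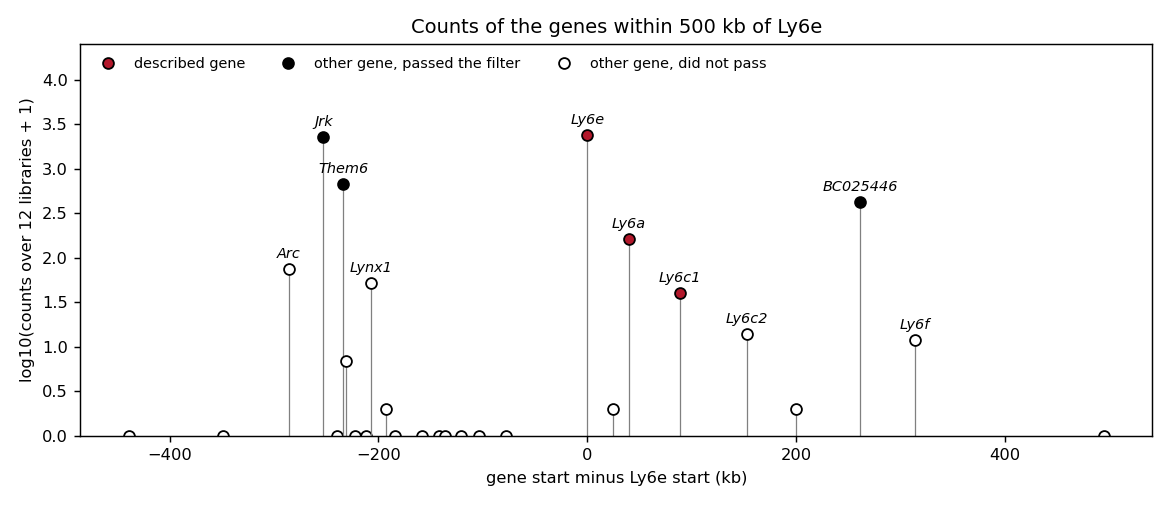
Counts over all 12 libraries, as log10(counts + 1), of Ly6e and the 26 other genes within 500 kb, against the distance of each gene's start from that of Ly6e in kilobases. Black points are neighbours that passed the filter on low counts, open points did not, red points are Ly6e, Ly6a and Ly6c1, and 13 of the 26 neighbours lie at 0.

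Prom2 (ENSMUSG00000027376, chr2:127526473-127541467, minus strand) encodes prominin-2, an epithelial relative of CD133. It had 40.4, 46.1 and 47.6 CPM in MYBup against 5.74, 4.99 and 9.15 in mock. In lung3 it had 15.7, 14.0 and 11.2 CPM against 30.7, 30.4 and 20.6 in wt. The order was MYBup, wt, lung3 and mock, with every neighbouring pair apart, so the mock line was the lowest group and not the wt or lung3 line. The log2 fold change was 2.76 (SE 0.21) in MYBup against mock and -1.004 (SE 0.20) in lung3 against wt. The lung3 change missed the threshold when wt replicate 1, wt replicate 2 or lung3 replicate 3 was left out, with values of -0.91, -0.91 and -0.87. Those fits did not pair libraries by replicate number. With the replicate number as a block the lung3 change passed, at -0.99. Prom1 (chr5:43993620-44102032, minus strand) had 0 counts in all MYBup and wt libraries, 1, 1 and 0 in mock and 0, 0 and 1 in lung3, and its exons share 424 bases with an antisense gene. Prominin transcripts in these libraries thus came almost entirely from Prom2, with 4681 counts over the 12 libraries against 3 for Prom1.

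The upstream sequences of Prom2 and Cd44 are shown because one gene differed widely between the groups and the other little. They are 200 bases before the gene start on the minus strand, 5′ to 3′, from the RefSeq promoter table for GRCm38.p6. Capitals mark matches, on either strand, to a c-Myb core (CAACNG or TAACNG) or an NF-kB element (GGG and CC with 5 bases of any kind between them).
Prom2, chr2:127541468-127541667: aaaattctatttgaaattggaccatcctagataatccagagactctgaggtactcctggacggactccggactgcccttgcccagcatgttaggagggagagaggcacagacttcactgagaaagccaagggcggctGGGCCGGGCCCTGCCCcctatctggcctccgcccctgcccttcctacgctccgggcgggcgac
Cd44, chr2:102901666-102901865: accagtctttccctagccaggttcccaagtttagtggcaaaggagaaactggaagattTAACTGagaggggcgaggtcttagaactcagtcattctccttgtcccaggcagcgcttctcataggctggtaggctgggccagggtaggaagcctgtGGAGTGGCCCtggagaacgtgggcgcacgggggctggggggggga
The Prom2 stretch holds 0 c-Myb cores and 4 overlapping NF-kB matches in 1 run, and the Cd44 stretch holds 1 of each. The RefSeq table has 7 promoters for 5 of the 9 genes, those of Prom2, Cd44, Procr, Prom1 and Ly6c1. In the 250 bases before the start, 4 of the 7 held a c-Myb core and all 7 an NF-kB match, while 43.1% and 45.8% of 32851 mouse promoters did. Neither an interferon-stimulated element (GAAA repeated after 2 bases of any kind, in 2.98% of all promoters) nor a STAT element (TTCNNNGAA, in 7.02%) was found in the 7. A match is letters in a window and says nothing about binding.

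Cd44 (chr2:102811141-102901665, minus strand) had 959, 997 and 1022 CPM in MYBup and 1204, 1020 and 1204 in mock. It had 717, 892 and 876 CPM in lung3 and 800, 931 and 859 in wt. The groups of each pair overlapped, and the plasmid lines lay above the other groups. The log2 fold change was -0.20 (SE 0.10) in MYBup against mock and -0.06 (SE 0.10) in lung3 against wt. Without lung3 replicate 1 the lung3 value was 0.03. Gene counts do not separate the standard and variant isoforms for which CD44 is known. Without mock replicate 2 the change in MYBup, at -0.28, passed the threshold.

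Cd24a (chr10:43578284-43584265, plus strand) had 556, 503 and 492 CPM in MYBup and 517, 597 and 554 in mock, which overlapped. In lung3 it had 248, 263 and 268 CPM, all below the 296, 320 and 343 of wt. Both plasmid lines thus held more Cd24a transcript than either untransfected line, with every library apart. The log2 fold change was -0.10 (SE 0.08) in MYBup against mock and -0.30 (SE 0.08) in lung3 against wt. The lung3 difference did not pass the threshold, but it did with the replicate number as a block (-0.30).

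Procr (chr2:155751117-155755471, plus strand) had 76.0, 68.4 and 67.9 CPM in MYBup against 52.4, 65.8 and 59.9 in mock, and the groups were just apart. In lung3 it had 87.4, 94.2 and 99.9 CPM, all above the 74.3, 76.4 and 78.7 of wt. Procr thus stood a little higher in MYBup than in mock and in lung3 than in wt. The log2 fold change was 0.25 (SE 0.09) in MYBup against mock and 0.30 (SE 0.09) in lung3 against wt. Neither passed, but the first, at 0.33, did without mock replicate 2, and the second, at 0.29, with the replicate block. The first also passed with DESeq2, at 0.25. Aldh1a3 (chr7:66390890-66427517, minus strand) had 1 count in MYBup replicate 2, 1 in wt replicate 3 and 0 in the other 10 libraries.

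**Figure D4:**
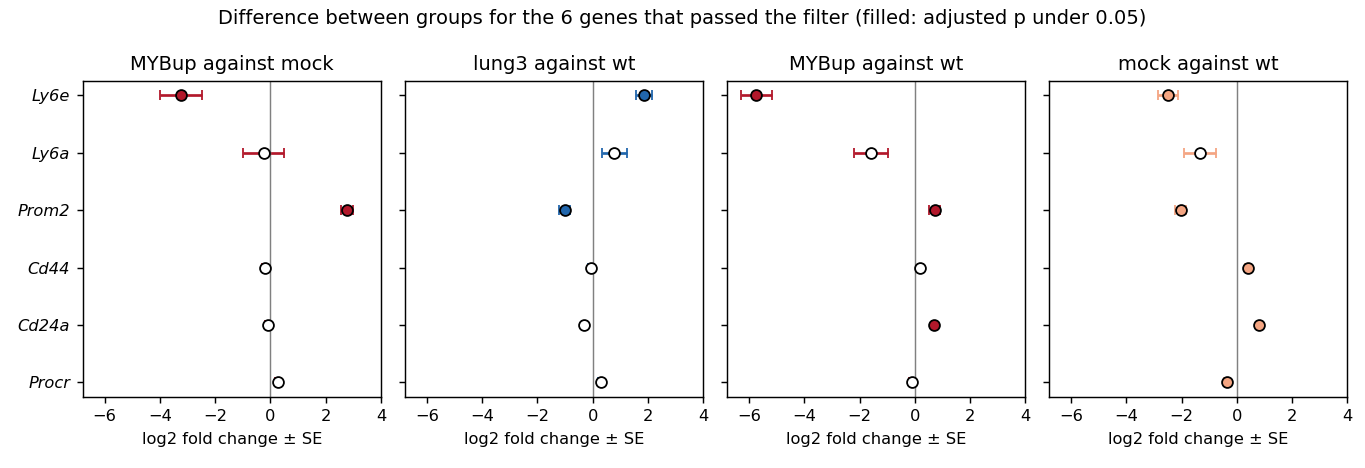
Log2 fold change with its SE for the 6 genes that passed the filter, in 4 comparisons, with filled points where the adjusted p was under 0.05. Ly6e lies at -3.24 in MYBup against mock and 1.86 in lung3 against wt, Prom2 at 2.76 and -1.004, and Cd44, Cd24a and Procr between -0.30 and 0.30 in both of these comparisons.

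In MYBup against mock 2 of the 6 genes, Ly6e and Prom2, passed the threshold, where 26.9% of all tested genes did, and 3 had groups that did not overlap, where 40.6% did. In lung3 against wt the same 2 passed, where 5.36% of tested genes did, and 4 had groups apart, where 27.4% did. With the replicate block the lung3 count was 4, where 17.9% of tested genes passed. It was 1 without wt replicate 1, wt replicate 2 or lung3 replicate 3, where 2.08%, 2.35% and 3.94% of tested genes passed. The MYBup count was 4 without mock replicate 2, where 29.7% of tested genes passed. Without mock replicate 3 and lung3 replicate 3 together, Ly6e stood at -3.45 and 1.46 in these comparisons and Prom2 at 3.05 and -0.87, all past the threshold. The members had been chosen with these comparisons known, and nothing is read from the shares.

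The level of each gene in untransfected cells places these differences. The comparisons with wt share libraries with those above and with each other, and their p-values come from the edgeR quasi-likelihood test with Benjamini-Hochberg adjustment over all tested genes. The members were chosen with values of the same libraries known, so these p-values are part of the description and not an independent test. Ly6e was lower than in wt cells in both plasmid lines, with a log2 fold change of -5.74 in MYBup (SE 0.56, adjusted p = 9.32e-06, 3 of 3 libraries below every wt library) and -2.51 in mock (SE 0.37, adjusted p = 0.000223). The mock line was thus itself well below untransfected cells, at 0.177 of the wt count level (95% counting interval 0.142 to 0.219), and MYBup was at 0.0182 (0.00831 to 0.0348). Prom2 was higher than wt in MYBup (0.72, SE 0.19, adjusted p = 0.00861) and lower than wt in mock (-2.04, SE 0.21, adjusted p = 1.96e-05). Set against untransfected cells, the MYBup excess of Prom2 was therefore smaller than against mock. Cd24a was higher than wt in both, by 0.69 in MYBup (SE 0.08, adjusted p = 4.61e-05) and 0.80 in mock (SE 0.08, adjusted p = 1.96e-05).

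Cd44 was higher than wt in mock (0.40, SE 0.10, adjusted p = 0.00687) and stood at 0.20 in MYBup (SE 0.10, adjusted p = 0.128). Procr was lower than wt in mock (-0.37, SE 0.09, adjusted p = 0.00655) and stood at -0.11 in MYBup (SE 0.09, adjusted p = 0.344). For Ly6a the values were -1.59 in MYBup (SE 0.61, adjusted p = 0.0554) and -1.34 in mock (SE 0.57, adjusted p = 0.0828). These 2 values passed the threshold without wt replicate 2, at -1.92 and -1.67. The MYBup value also passed with DESeq2 (-1.61) and without the filter on low counts (-1.59). Ly6c1 had 2 counts in MYBup and 3 in mock against 24 in wt, ratios of 0.125 (0.0144 to 0.505) and 0.166 (0.0321 to 0.548). Of the 6 genes, 3 passed in MYBup against wt, where 38.2% of tested genes did, and 5 had groups apart, where 55.6% did. In mock against wt 5 passed, where 35.9% did, and 5 had groups apart, where 46.9% did. The mock line and the untransfected line thus differed at a large share of all genes, and nothing is read from the members' counts.

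The genes whose levels ran most like Ly6e over the 12 libraries were Pacsin2 (Pearson r = 0.981), Fancb (0.978), Gtf2h1 (0.977), Tpm1 (0.975) and Zfp110 (0.974), out of 8801 genes searched. They share the order of the groups but not the size of the difference. Tpm1, a tropomyosin gene, stood at 455 ± 10.6 CPM in MYBup against 556 ± 35.8 in mock, and at 867 ± 19.8 in lung3 against 661 ± 79.3 in wt. Pacsin2, a membrane-bending protein, stood at 99.8 ± 4.52 in MYBup against 117 ± 4.31 in mock, and at 181 ± 8.43 in lung3 against 146 ± 3.86 in wt. For Prom2 the most similar were Ccdc167 (0.967), Arv1 (0.95), Trappc5 (0.945), Man2b1 (0.94) and Lrp10 (0.937). Man2b1, a lysosomal mannosidase gene, stood at 66.6 ± 2.88 CPM in MYBup against 34.5 ± 2.52 in mock, and at 42.0 ± 3.14 in lung3 against 50.1 ± 1.54 in wt (SD, n = 3 each). The libraries fall into 4 groups and share their depth across genes, so r is given as a description.

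Genes of 6 related lists were counted beside the median over all tested genes, which was 0.00146 in MYBup against mock (1615 higher, 1423 lower) and 0.00100 in lung3 against wt (329 higher, 276 lower). In lung3 against wt 5.36% of tested genes passed with all libraries and 17.9% with the replicate block. With 1 library left out, 237 to 688 genes passed there and 2046 to 3386 in MYBup against mock. List counts under these settings are to be read beside these numbers. Of 33 other Ly6 and uPAR family genes, 19 had a count and 2 passed the filter. Plaur, the urokinase receptor gene, was lower in MYBup at 143 ± 3.98 CPM against 195 ± 16.4 in mock (log2 fold change -0.44, adjusted p = 0.00427), and stood at 124 ± 10.7 in lung3 against 145 ± 17.1 in wt. Against wt, Plaur stood at -0.02 in MYBup and 0.43 in mock, so its MYBup level lay near that of untransfected cells. Lypd3 did not pass in MYBup against mock, with 17.5 CPM in MYBup against 18.8 in mock, and had 6.96 in lung3 against 9.01 in wt. Neither gene passed in lung3 against wt with all libraries, and 1 of the 2 passed there with the replicate block or without lung3 replicate 3.

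Of 16 tested mammary stem and progenitor markers, 2 rose and 4 fell in MYBup against mock (median -0.11), and 1 rose and 4 fell in lung3 against wt (median -0.18). In MYBup the integrin alpha 2 gene Itga2 fell by 1.38 on the log2 scale, the Notch ligand gene Dll1 by 1.07 and the luminal progenitor marker Cd14 by 0.81, while the efflux pump gene Abcg2 rose (1.10). In lung3 Cd14 rose (0.83), and Dll1 (-0.80) and Sox9 (-0.40) were among those that fell. Dll1 thus fell in both comparisons, and Cd14 changed in opposite directions. Against wt, Dll1 stood at -0.10 in MYBup and 0.97 in mock, and Abcg2 at -0.41 in MYBup and -1.51 in mock. For both genes the mock line thus lay further from untransfected cells than MYBup did. Against wt, Itga2 stood at -1.32 in MYBup and 0.06 in mock, and Cd14 at -0.42 and 0.39. The lung3 count fell to 3 without wt replicate 1, wt replicate 2 or lung3 replicate 2. It was 9 with the replicate block, where 17.9% of all tested genes passed. Sox9 lost its call without any 1 of wt replicates 1 to 3 and lung3 replicates 1 and 2, at values from -0.41 to -0.33.

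Of 19 CD44 ligands, partners and splicing factors, 1 rose and 7 fell in MYBup against mock (median -0.24). Spp1, the gene of the CD44 ligand osteopontin, was at 361 ± 16.0 CPM in MYBup against 843 ± 89.3 in mock (-1.23), and Msn, the gene of moesin, which links CD44 to actin, at 1279 ± 47.7 in MYBup against 2687 ± 215 in mock (-1.07). The hyaluronidase gene Hyal1 fell by 1.70 and the hyaluronan synthase gene Has3 by 0.82. These genes were named because their called changes were the largest of the list. The list median of -0.24 was close to the value of Cd44 itself, which stood at -0.20, and 11 of the 19 genes did not pass. Spp1 was at 0.99 in mock against wt (adjusted p = 0.000465) and at -0.24 in MYBup against wt (adjusted p = 0.258), so its level in MYBup lay near that of untransfected cells. Hyal1 stood at 1.245 in mock against wt and -0.46 in MYBup against wt, Has3 at 0.65 and -0.16, and Msn at 0.39 and -0.68. The count of 8 was 4 without mock replicate 1 or 3 or MYBup replicate 1 or 2, and 5 without MYBup replicate 3. Has3 lost its call without each of these 5 libraries, at values from -0.92 to -0.67. In lung3 against wt 1 of 19 passed (median 0.04), Has3 with -1.56. It lost its call without wt replicate 2 (-1.55) or lung3 replicate 1 (-1.64), where 0 of 19 passed. The count was 2 without lung3 replicate 3 and 3 without wt replicate 3. It was 5 with the replicate block, where 17.9% of all tested genes passed. Exons of Hyal1 overlap those of Naa80 and Hyal3 on the same strand, and exons of Has3 those of Chtf8 on the other, so these counts are uncertain.

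Of 19 aldehyde dehydrogenase and retinoid genes, 3 rose and 6 fell in MYBup against mock (median -0.17), and 0 rose and 1 fell in lung3 against wt (median -0.19). The mitochondrial folate enzyme gene Aldh1l2 was at 2.03 ± 0.366 CPM in MYBup against 11.1 ± 1.89 in mock (-2.43), and Aldh3a1 fell by 1.07. Aldh6a1, an enzyme of valine breakdown, rose by 1.45 and Aldh7a1, an enzyme of lysine breakdown, by 1.23. The high level of Aldh1l2 was that of mock cells, which stood 3.195 above wt on the log2 scale (adjusted p = 0.000113). Against wt, Aldh3a1 was higher in both plasmid lines, at 0.86 in MYBup and 1.92 in mock. Aldh6a1 stood at 1.27 in MYBup and -0.18 in mock, and Aldh7a1 at 0.61 and -0.61. Aldh3a1 lost its call without mock replicate 1 or MYBup replicate 2 or 3, at -1.05, -0.95 and -1.05. In lung3 Aldh5a1, the succinate semialdehyde dehydrogenase gene, fell by 0.75. There 4 of 19 passed without wt replicate 3, and 6 with the replicate block, where 17.9% of all tested genes passed. Exons of Aldh1l2, Aldh6a1, Aldh7a1 and Aldh5a1 overlap those of genes on the other strand.

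Procr belongs to the protein C pathway, which limits thrombin formation. Of 9 tested genes of this pathway, 3 rose and 2 fell in MYBup against mock (median -0.02), and 3 rose and 1 fell in lung3 against wt (median 0.09). Pros1, the gene of protein S, a cofactor of activated protein C, had 2.77, 3.18 and 3.68 CPM in MYBup against 0.0474, 0.214 and 0.0 in mock, and 0.655, 1.27 and 0.485 CPM in lung3 against 4.18, 4.42 and 3.16 in wt. It was close to 0 in mock cells, so the fitted log2 fold change of 5.22 depends on few reads, and in MYBup against wt it stood at -0.28 (adjusted p = 0.428). Its log2 fold change in lung3 was -2.39 (adjusted p = 0.00166). Plat, which encodes a plasminogen activator, rose in MYBup (2.02) and in lung3 (0.73). F3, the gene of tissue factor, rose in lung3 to 27.7 ± 3.61 CPM against 13.6 ± 0.655 in wt (1.02), and the protease-activated receptor gene F2rl1 fell by 0.46 in MYBup. Against wt, Plat stood at 1.04 in MYBup and -0.98 in mock, and F2rl1 at -0.17 and 0.29.

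Ly6e and Ly6a are interferon-inducible, and 16 interferon-stimulated genes were tested: 3 rose and 0 fell in MYBup against mock (median 0.14), and 3 rose and 0 fell in lung3 against wt (median 0.48). In MYBup these included Oasl1 (1.73) and Irf9 (0.63). In lung3 they were Rsad2 (2.20), Oasl1 (1.41) and Irf1 (0.50). Oasl1 had 12.2, 11.7 and 28.4 CPM in lung3 and 4.5, 5.91 and 9.64 in wt, and Rsad2 had 1.38, 0.693 and 4.44 CPM in lung3 and 0.364, 0.289 and 0.863 in wt. Replicate 3 was thus the highest library of both groups for these genes, as it was for Ly6e and Ly6a, and the part of this in the Ly6e values was not tested. Ly6e itself stood at 1.46 in lung3 against wt without lung3 replicate 3. The list count in lung3 fell to 0 without wt replicate 1, wt replicate 2 or lung3 replicate 3, where 2.08%, 2.35% and 3.94% of all tested genes passed. It was 6 without wt replicate 3, and 7 with the replicate block, where 17.9% of all tested genes passed. Without lung3 replicate 3, Rsad2 stood at 1.13, Oasl1 at 0.84 and Irf1 at 0.43. Without wt replicate 1 or 2, Rsad2 stood at 2.02 and 1.91, Oasl1 at 1.19 and 1.33 and Irf1 at 0.51 and 0.38. Oasl1 also lost its call without lung3 replicate 2 (1.61) and Irf1 without lung3 replicate 1. In MYBup, Irf9 lost its call without mock replicate 1 or 3 or MYBup replicate 1 or 2, at values from 0.50 to 0.68. Against wt, Irf9 stood at 0.06 in MYBup and -0.57 in mock, and Oasl1 at 0.745 and -0.99. Exons of Irf1, Irf9 and Oasl1, like those of Dll1 and Spp1 above, overlap exons of other genes, so their counts are uncertain.

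**Figure D5:**
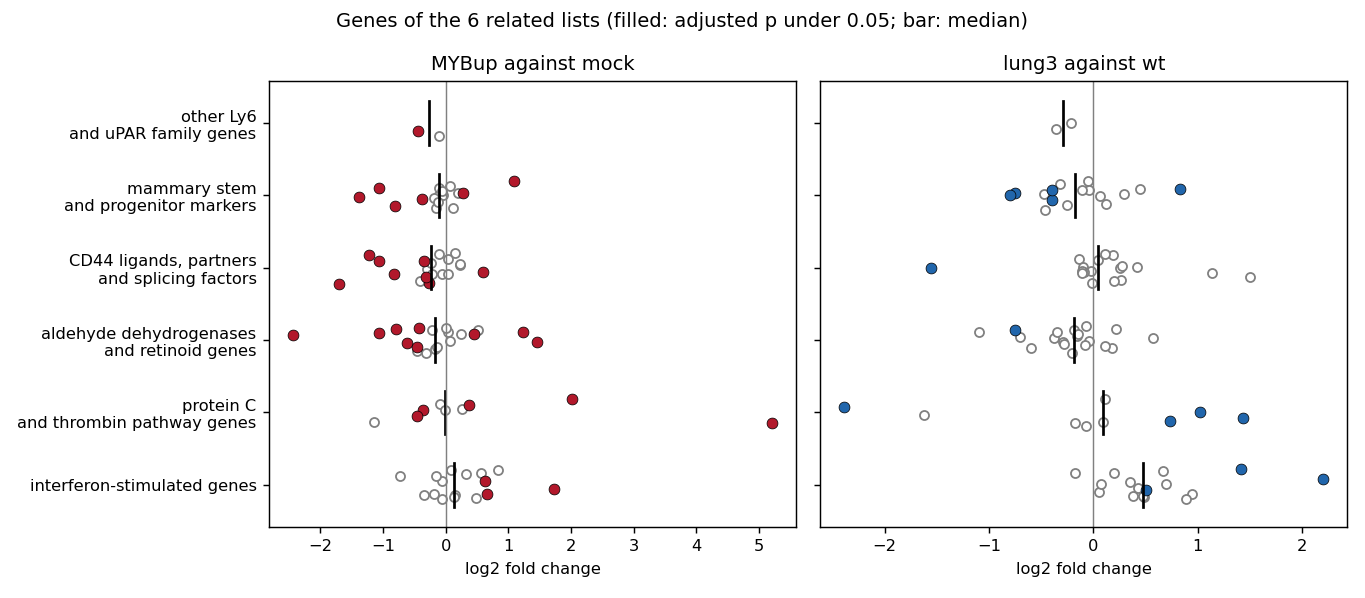
Log2 fold change of every tested gene in 6 related lists, in MYBup against mock and in lung3 against wt, with filled points where the adjusted p was under 0.05 and a bar at the median of each list. Medians lie between -0.27 and 0.14 in MYBup against mock, and the interferon list lies highest in lung3 against wt, with a median of 0.48.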

How the data were processed

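RNA was sequenced from 12 libraries, made with an Illumina TruSeq RNA kit per the labels. The authors deposited raw counts of reads per gene, without normalisation. The submitters' processing notes name STAR, edgeR and the build GRCm38. How reads were counted, on which annotation and strand, is not stated by any source used here. Deposited counts over 4 digits, 2708 values, are rounded to 4 significant digits. Coordinates and exon lengths are from GENCODE M21 on GRCm38. Promoters are from RefSeq GRCm38.p6.

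Tests used edgeR 4.0.16 in R 4.3.3 (quasi-likelihood F test with a term per group on all 12 libraries, after filterByExpr and TMM scaling), with Benjamini-Hochberg adjustment over 11291 genes and a threshold of 0.05, and were tested on simulated data. SE was taken as the size of the log2 fold change over the root of F. CPM uses TMM factors. Counting intervals are exact 95% intervals and cover counting error only. Likeness is Pearson r of log2(CPM + 0.5) over tested genes whose mean log2 CPM was 3 or more. Coding sequences were aligned with Biopython 1.88. Alternatives were RLE size factors, no filter, 6 libraries, a replicate block, DESeq2 1.42.0, a 2-fold minimum, leaving out each library and, added after seeing the data, leaving out mock replicate 3 and lung3 replicate 3 together. The members and lists were chosen with earlier results of these data known. Named genes are all members, up to 4 genes per list with the largest called change in each main comparison, the 5 genes most like Ly6e and Prom2, and called neighbours of Ly6e. Some genes taken by this rule are not reported here.

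Pairing by replicate number was checked by correlating deviations from the group means. Same-number correlations were 0.425, 0.326 and 0.289 for lung3 and wt, where unlike numbers gave -0.212 to -0.0993. Deviations from a group mean cancel out within the group, so the negative values of unlike numbers are no separate evidence. The numbers are taken to pair these libraries, on the data and not on the labels. Same-number correlations were -0.256, -0.623 and 0.489 for MYBup and mock, -0.00664, -0.209 and 0.148 for MYBup and wt, and -0.17, 0.145 and 0.126 for mock and wt, which are not paired. Unlike numbers can also deviate together, with 0.734 for MYBup replicate 1 and mock replicate 2. Replicates differed by more than sampling noise (chi-square per gene 2.29 to 37.4).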

Additional observations from a re-analysis of the deposited data

How the results depend on the processing

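Over the alternatives run for single genes, 253 of the members' values kept their direction and side of the threshold, 13 gained a call, 3 lost one and 3 changed sign. The 2-fold minimum was applied to totals of genes only. Ly6e kept its direction and call in all 4 comparisons under every alternative run for single genes, and Prom2 did so except in lung3 against wt. The sign changed for Ly6a in lung3 against wt without lung3 replicate 3 (-0.1063) and without mock replicate 3 and lung3 replicate 3 together (-0.1051), with values from -0.11 to 1.12 when 1 library was left out. It also changed for Cd44 in lung3 against wt without lung3 replicate 1 (0.03304; -0.12 to 0.03 with 1 library left out). The number of genes past the threshold moved with the replicate block to 1479 in MYBup against mock and 1985 in lung3 against wt, where it ranged from 237 to 688 with 1 library left out. A 2-fold minimum left 613, 164, 725 and 637 genes in MYBup against mock, lung3 against wt, MYBup against wt and mock against wt. Cd24a and Procr in lung3 against wt passed with the replicate block, in the fit on 6 libraries (-0.30 and 0.30) and with DESeq2 (-0.30 and 0.30). The block changed no other call among the members it was run for; Ly6a had no value under it in MYBup against mock or MYBup against wt. Of values for named list genes, 363 kept their call and 45 lost it. Depth limits Ly6c1, Prom1, Aldh1a3 and the MYBup level of Ly6e.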
